A study of Mus musculus with 8 samples.

Results

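The genes described here encode 9 neuropeptides that sympathetic neurons can release beside neuropeptide Y: galanin (Gal), vasoactive intestinal peptide (Vip), somatostatin (Sst), the enkephalin precursor (Penk), cocaine- and amphetamine-regulated transcript (Cartpt), pituitary adenylate cyclase-activating polypeptide (Adcyap1), the substance P precursor (Tac1), calcitonin gene-related peptide (Calca) and brain natriuretic peptide (Nppb). They were chosen by name, and all 9 were found among the 19224 genes measured in 1303 single neurons of the mouse stellate ganglion. The neurons came from 8 C57BL6/J mice that were 8 to 10 weeks old. Every mouse had received AAV-GFP in the heart and AAV-tdTomato in the front paws, viruses that travel back along the axon and mark neurons of those targets, and both stellate ganglia were taken. There was no untreated group, so the comparisons are between neuronal subtypes and between mice. Per the labels, 16 left and right ganglia were combined for digestion, so p-values over mice measure the spread between these libraries, part of which may be technical. The authors sorted the neurons into 8 subtypes, named NA1a, NA1b, NA1c, NA2 and NA3 (noradrenergic), Ach1 and Ach2 (cholinergic) and Glut (glutamatergic), which held 316, 311, 239, 175, 99, 64, 62 and 37 neurons. The names of 5 mice in the cell table matched 1 sample each, and these mice, called mouse 1 to 5 after their replicate numbers, gave 1002 neurons (165 to 235 per mouse) and every comparison over mice. The other 301 neurons, of 3 mouse names, entered pooled counts only. The 5 matched mice are all of batch 2, and the other 3 samples are of batch 1. Differences between matched and unmatched neurons therefore cannot be told apart from batch. No doublet step was named in the methods, and none was applied.

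The subtypes were clustered by the authors from the same expression values, and Vip is one of the genes by which they tell Ach2 apart, so differences between subtypes measure how steady a level was over mice and are not an independent test of the subtype. Neuronal identity was checked with Snap25, a synaptic gene with a UMI (a molecule counted once by its barcode) in 84.8% to 97.3% of the neurons of each subtype. Dbh, the enzyme that makes noradrenaline, was found in 80.6% to 100% of them. Chat, which makes acetylcholine, was found in 20 of 62 Ach2 neurons but in 0 of 64 Ach1 neurons (a count of 0 here leaves room for 4.69%), whereas Slc18a3, the vesicular acetylcholine transporter, was found in 9.38% of Ach1 neurons, 53.2% of Ach2 and 0.643% to 2.29% of the noradrenergic subtypes. The glutamate transporter gene Slc17a6 was found in 5 of 37 Glut neurons. Median depth ran from 2206.5 UMIs per neuron in Ach1 to 6773 in NA3, so shares of neurons with a UMI are also given after thinning each neuron to 2000 UMIs where depth could set them. Across the 5 libraries, 21 cell barcodes occurred more than once, in 73 neurons: 55 of 150 in NA2, 15 of 46 in Ach2 and 3 of 17 in Glut. Of these barcodes, 20 had the same subtype in every library. The 55 NA2 neurons carried only 17 barcodes, the 15 Ach2 neurons 4 and the 3 Glut neurons 1. Values that include them count each as a separate neuron of its own mouse, and whether they are separate cells was not tested. If they are not, neurons and mice are not independent there. Results for NA2, Ach2 and Glut that rest on them are given with and without these neurons.

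Neuropeptides are made as long precursors, packed in large dense core vesicles and released mainly at high firing rates. They act on G protein-coupled receptors of the target and of neighbouring nerve endings. In sympathetic ganglia, neuropeptide Y and galanin accompany noradrenaline, and galanin released at the heart is known to restrain the release of acetylcholine from vagal endings. Vasoactive intestinal peptide and calcitonin gene-related peptide are typical of cholinergic sympathetic neurons, such as those to sweat glands, and both relax blood vessels. Somatostatin and enkephalins are mainly inhibitory, and substance P and calcitonin gene-related peptide are best known from sensory neurons.

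Transcription of several of these genes is known to respond to cyclic AMP through the element TGACGTCA. The stretch before each start site is therefore shown for the 5 members measured well enough to be compared, to place the element in the genes that later appear together. RefSeq promoter windows (GRCm38.p6, 250 bases before to 50 after the start) matched 8 of the 9 members, all but Penk. The 120 bases before the start are printed 5′ to 3′ on the gene's strand, in lower case, with TGACGTCA or its 5-base core TGACG in capitals. They are chr19:3414545-3414664 (minus strand) for Gal, chr10:5639098-5639217 (plus) for Vip, chr16:23890845-23890964 (minus) for Sst, chr13:99900684-99900803 (minus) for Cartpt and chr7:114636358-114636477 (minus) for Calca.
Gal: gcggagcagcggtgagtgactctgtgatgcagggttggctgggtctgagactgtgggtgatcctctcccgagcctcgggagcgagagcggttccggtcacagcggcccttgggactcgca
Vip: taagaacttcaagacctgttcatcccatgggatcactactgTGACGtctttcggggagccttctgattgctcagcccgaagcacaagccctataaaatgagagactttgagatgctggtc
Sst: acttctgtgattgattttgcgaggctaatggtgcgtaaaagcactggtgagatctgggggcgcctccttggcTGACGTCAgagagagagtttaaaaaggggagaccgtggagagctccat
Cartpt: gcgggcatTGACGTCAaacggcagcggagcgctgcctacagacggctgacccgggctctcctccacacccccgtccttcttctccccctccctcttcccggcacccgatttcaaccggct
Calca: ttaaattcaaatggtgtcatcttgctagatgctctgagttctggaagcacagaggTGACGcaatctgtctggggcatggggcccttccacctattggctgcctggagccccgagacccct

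The whole element lay 48 to 41 bases before the start of Sst and 112 to 105 bases before that of Cartpt. On either strand, 1.55% of the 32851 windows of the table hold it in the 250 bases before the start. The core lay 79 to 75 bases before the start of Vip and 65 to 61 before that of Calca, and Adcyap1 and Tac1 also had it. The core, which the whole element includes, is in 17.8% of windows. Neither form was found in the 250 bases before Gal or Nppb. A match of letters is a description of the window and not a site of binding.

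Across the 8 subtypes the 9 peptides fell into a widely detected gene, a group held mostly by Ach2 and a group near the limit of detection. Gal had a UMI in 969 of 1303 neurons (74.4%, exact 95% Clopper-Pearson interval 71.9% to 76.7%) and 9145 UMIs in all. Vip was found in 247 neurons (19.0%), of which 142 had 1 UMI only. Cartpt was found in 95 neurons (7.29%), Sst in 38 (2.92%) and Calca in 37 (2.84%). Tac1 was found in 18 neurons, Adcyap1 in 17, Penk in 3 and Nppb in 0, which allows a share of up to 0.230%. Intervals and limits here and below cover counting error only. The plot of shares and levels by subtype shows the Gal row filled in all 8 columns, whereas the Vip, Cartpt, Sst and Calca rows have their largest dots in Ach2.

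**Figure D1:**
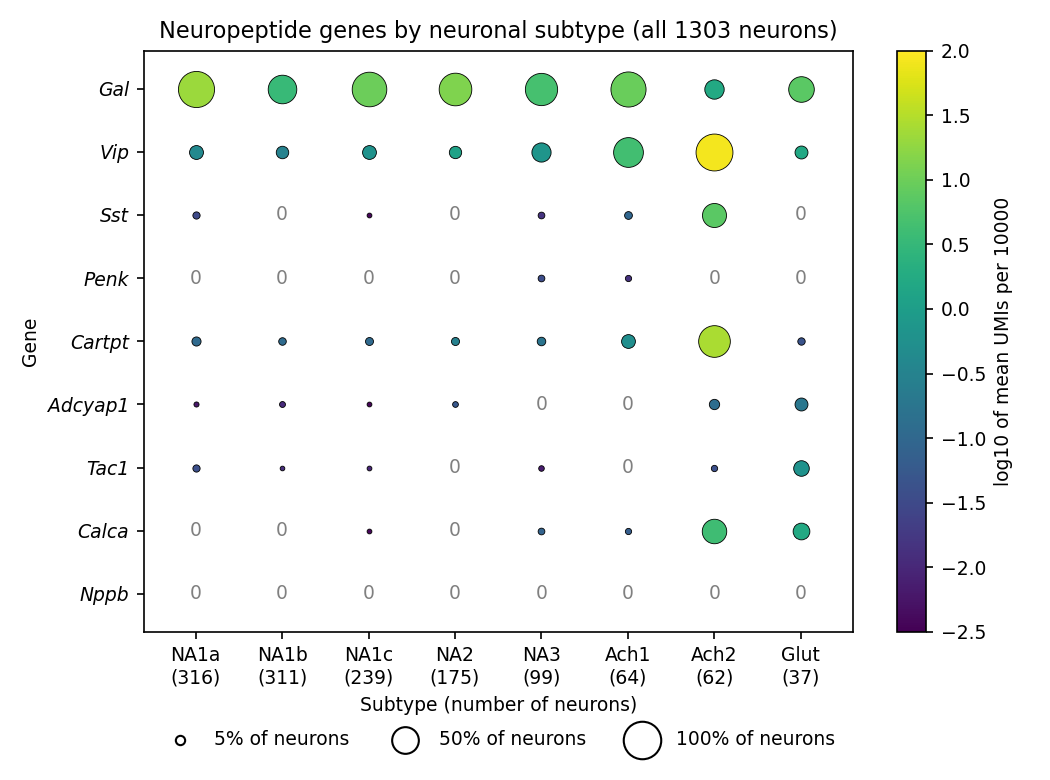
Each dot is 1 peptide gene (rows) in 1 subtype (columns, number of neurons in brackets), pooled over all mice; its area gives the percent of neurons with at least 1 UMI and its colour the log10 of the mean UMIs per 10000. Gal reaches from 25.8% of Ach2 neurons to 92.7% of NA1a neurons, Vip reaches 96.8% in Ach2 and 62.5% in Ach1, and Nppb has no dot.

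For tests over mice, the level of a gene was the mean of its UMIs per 10000 over the neurons of 1 mouse and subtype, where at least 10 neurons were present. The 25 such profiles were fitted with limma on log2(level + 0.1), with the mouse as a block, and p-values were adjusted by Benjamini-Hochberg over the 7095 genes with a level of at least 0.5 in at least 2 profiles, the number of the smallest subtype. Of the 9 members, 5 passed this filter: Gal in 25 of 25 profiles, Vip in 11, Cartpt in 3, Sst in 2 and Calca in 2. Penk, Adcyap1, Tac1 and Nppb passed in none. Since Sst and Calca passed through Ach2 alone and Cartpt through Ach2 and NA2, a difference of these genes from NA1a to Ach2 was fixed by the filter, and nothing is drawn from the number of members that moved there.

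Gal was highest in NA1a and lowest in NA1b among the noradrenergic subtypes. In mice 1 to 5 its level in NA1a was 22.1, 13.0, 37.9, 27.2 and 15.1 UMIs per 10000 (23.0 ± 10.0, SD, n = 5). In NA1b the level was 4.53, 2.69, 5.13, 3.97 and 1.67 (3.60 ± 1.41, SD, n = 5), and in NA1c 9.48, 7.46, 13.4, 9.48 and 11.8 (10.3 ± 2.29, SD, n = 5). Mouse 3 was the highest in each of these subtypes. The ranges of NA1a and NA1b and those of NA1b and NA1c did not overlap, whereas NA1c of mouse 3 lay just above NA1a of mouse 2. In NA2 the level was 12.6, 8.64, 18.2, 11.9 and 15.2 (13.3 ± 3.60, SD, n = 5), and in the 3 mice with enough NA3 neurons, mice 2, 4 and 5, it was 5.69, 4.06 and 5.30 (5.02 ± 0.854, SD, n = 3). NA2 overlapped NA1a and NA1c, and NA3 overlapped NA1b. Ach1 had enough neurons in mouse 4 alone, where the level was 8.79, and Ach2 in mice 1 and 4, where it was 1.13 and 3.75. Without neurons of shared barcodes the level was 9.48 to 20.1 over 4 mice in NA2 (median 13.3) and 3.19 ± 2.43 (SD, n = 2) in Ach2.

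**Figure D2:**
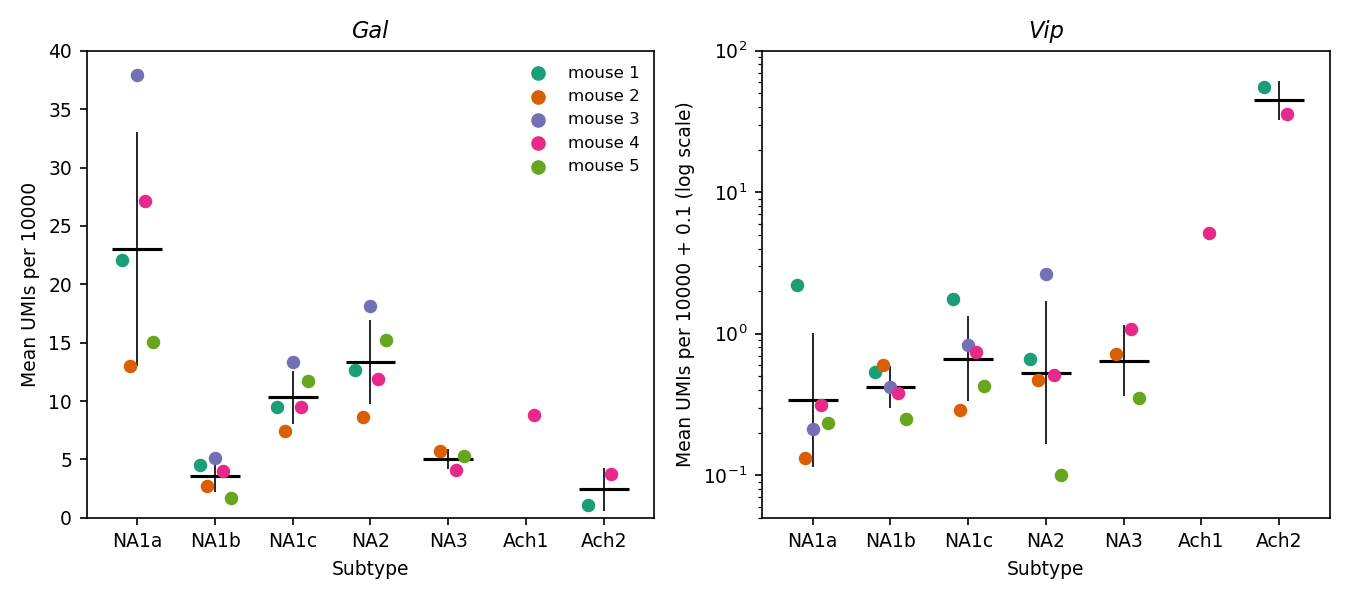
Levels of Gal (linear axis) and Vip (log axis, level + 0.1) in UMIs per 10000 by subtype; each point is 1 mouse with at least 10 neurons of the subtype, the line is the mean and the bar the SD over mice (of the log10 values for Vip). Gal points of NA1a run from 13.0 to 37.9 and those of NA1b from 1.67 to 5.13, and both Ach2 points of Vip, at 35.6 and 55.8, lie above every other point.

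In the limma fit, Gal was the 1 member called between NA1a and NA1b, where 3.48% of all genes tested were called. It was higher in NA1a by 2.64 on the log2 scale (SE 0.23, adjusted p = 2.5e-11) and higher in 5 of 5 mice. Gal was also the 1 member called between NA1a and NA1c, against 4.37% of all genes, with a log2 difference of 1.07 (SE 0.23, adjusted p = 0.00413). With no filter on low values this adjusted p was 0.0605, and with at least 5 neurons per profile it was 0.134. From NA1b to NA1c, where 1.42% of genes were called, Gal was the 1 member called and was lower in NA1b (log2 difference -1.57, SE 0.23, adjusted p = 1.9e-05). The member called was the same gene each time. Sst and Calca passed the filter through Ach2 alone and Cartpt through Ach2 and NA2, so they had little room to be called here. When each fit held only the 2 subtypes compared, Gal was the only member tested. Of all genes, 15.3% were then called for NA1a against NA1b, 18.1% for NA1a against NA1c and 4.37% for NA1b against NA1c. The count of members called is therefore a result about Gal and not about the group.

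From NA1a to NA2, 43.9% of all genes were called, so the call of Gal (log2 difference 0.72, SE 0.23, adjusted p = 0.0105), 1 of 5 members tested, was not more than this background gives. Without shared barcodes 34.8% of genes were called. The median gene was itself higher in NA1a than in NA2 by 0.24, and of the 3112 genes called 2111 were higher and 1001 lower. With profiles centred on their median gene the split was 1537 to 1662 and the Gal difference was 0.42 (adjusted p = 0.144). Gal was higher in NA1a than in NA2 in 4 of 5 mice, and the difference was 0.76 (adjusted p = 0.0220) without shared barcodes and 0.64 (adjusted p = 0.0597) without mouse 3. From NA1a to NA3, where 17.8% of genes were called and the median gene was higher in NA1a by 0.23, Gal was again the 1 member of 5 called, a share near this background. It was higher in NA1a by 1.92 (SE 0.28, adjusted p = 6.3e-07) and in each of the 3 mice. Summed markers of satellite glia, the cells that wrap ganglion neurons, were 221 to 440 UMIs per 10000 in NA3 and no more than 12.0 in NA1a, with 10 of 10 markers detected. Those of fibroblasts were 12.1 to 33.9 and 0.751 to 1.29 (7 of 7 detected), and those of Schwann cells 12.3 to 19.2 and 2.04 to 2.78 (7 of 8 detected). Their part in the levels of NA3 was not tested.

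Ordered by level within mice, Gal ran NA1a, NA2, NA1c, NA3, NA1b. All 10 pairs of these 5 subtypes were compared by an exact two-sided sign-flip permutation test over mice, in which 5 mice cannot give a p below 0.0625 nor 3 mice below 0.25. NA2 was higher than NA1c in 5 of 5 mice by a narrow margin (log2 difference NA1c minus NA2 -0.35 ± 0.09, SD, exact p = 0.0625, adjusted over the 10 pairs 0.125). Without shared barcodes this was -0.29 ± 0.27 and after thinning -0.22 ± 0.29, each in 4 mice with NA2 higher in all 4 (exact p = 0.125, the smallest that 4 mice can give). NA1a and NA2 had an exact p of 0.125 (adjusted 0.208), and NA1b was below NA3 in 3 of 3 mice with an exact p of 0.25 (adjusted 0.25). With at least 5 neurons per mouse the last pair could be compared in 5 mice, and NA1b was then above NA3 in 2 of 5 (exact p = 0.375). After thinning NA1b was below NA3 in 3 of 3 mice (log2 difference -1.17 ± 0.62, SD). With so few mice the test cannot show whether these neighbours differ.

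Single neurons differed within subtypes more than the means show. The quartiles of Gal per 10000 UMIs were 7.42 and 30.8 in NA1a, 1.20 and 20.8 in NA2 and 0 and 6.41 in NA3. The median neuron had 16.0 Gal UMIs per 10000 in NA1a, 8.53 in NA2, 6.85 in NA1c, 7.99 in Ach1, 3.23 in NA3 and 1.65 in NA1b, and 0 in Ach2 and Glut. NA1a, 24.3% of the neurons, held 59.1% of all Gal UMIs. By share of neurons with a UMI the spread was narrower, from 92.7% in NA1a to 57.6% in NA1b, and after thinning it went from 87.3% of NA1a neurons through 76.9% of NA1c and 75.8% of NA2 to 37.1% of NA1b. NA3, the deepest subtype, fell from 73.7% to 51.1%. Outside the noradrenergic subtypes Gal was found in 87.5% of Ach1 (81.6% thinned), 45.9% of Glut (interval 29.5% to 63.1%, 31.0% thinned) and 25.8% of Ach2 neurons (20.4% thinned, 34.0% without shared barcodes).

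The gene whose profile was most like that of Gal over the 25 profiles was Npy, the precursor of neuropeptide Y, the main peptide of sympathetic neurons (Pearson r = 0.908). Bub3, a spindle checkpoint gene (r = 0.814), and Kcnmb4, a potassium channel subunit (r = 0.809), followed. The 7095 genes tested were ranked, and the profiles of 1 mouse share a library, so these values carry no p. Npy was also called in all 6 contrasts, in the same direction as Gal each time. Between single neurons of 1 mouse, Gal and Npy were correlated in NA1a with r of 0.23 to 0.63 over the 5 mice, in NA1c with 0.21 to 0.83 and in NA3 with 0.55 to 0.73, but in NA1b with only -0.07 to 0.22. Both genes of a neuron share its depth, and NA1b has few UMIs of either.

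Ach2 held most of the Vip, Cartpt and Sst of the ganglion. These 62 neurons, 4.76% of the total, had 88.1% of all Vip UMIs, 88.8% of Cartpt, 95.4% of Sst and 67.3% of Calca. Pooled over all mice, Vip was found in 60 of 62 neurons (96.8%, interval 88.8% to 99.6%), Cartpt in 44 (71.0%), Calca in 26 (41.9%) and Sst in 25 (40.3%). Without shared barcodes the counts were 45, 29, 16 and 20 of 47. After thinning to 2000 UMIs the shares were 88.9% for Vip, 59.3% for Cartpt, 35.2% for Sst and 29.6% for Calca, and outside Ach2 no thinned neuron had Sst.

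The level of Vip in Ach2 was 55.8, 74.7, 63.3, 35.6 and 41.2 UMIs per 10000 in mice 1 to 5. Mice 2, 3 and 5 had only 5, 6 and 5 Ach2 neurons, so means over mice rest on mice 1 and 4, with 13 and 17 neurons. Without shared barcodes the Vip levels were 41.6, 9.94, 10.0, 24.7 and 8.20, from 10, 2, 2, 13 and 4 neurons, so in mice 2, 3 and 5 the Vip level came largely from neurons whose barcode recurred in another library. In the 16 Ach2 neurons of mice matched to no sample the Vip level was 184, and 1 Ach2 neuron held 471 Vip UMIs. The gap in Vip between matched and unmatched mice cannot be told apart from batch.

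Cartpt levels in Ach2 were 27.3, 44.4, 33.6, 14.4 and 11.5 in mice 1 to 5, and 23.1, 7.30, 17.1, 2.74 and 0 without shared barcodes. Sst levels were 5.57, 3.87, 3.76, 1.15 and 0, with Sst in 7 of 13, 1 of 5, 3 of 6, 3 of 17 and 0 of 5 neurons, and mouse 1 was the highest and mouse 5 without any. Without shared barcodes the Sst levels were 3.88, 0, 1.62, 0.555 and 0. Calca levels were 4.69, 8.75, 5.99, 2.72 and 0, and without shared barcodes 1.82, 0, 0, 0.676 and 0. The Calca mean of mice 1 and 4 was thereby 3.70 ± 1.40 (SD, n = 2) with and 1.25 ± 0.807 (SD, n = 2) without these neurons. Of the 4 peptides, Calca was the one whose mean over mice 1 and 4 fell by the largest share without the recurring barcodes. Single mice did not all follow this, since in mouse 4 Cartpt fell from 14.4 to 2.74 and Calca from 2.72 to 0.676. Calca was also found in Ach2 neurons of unmatched mice, at a level of 3.56.

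From NA1a to Ach2, 5.02% of all genes were called (136 to 990 genes over the alternatives, 356 here) and so were all 5 members tested, of which Gal alone was fixed neither by the filter nor, like Vip, by a part in naming Ach2. Gal was higher in NA1a by 3.32 on the log2 scale (SE 0.32, adjusted p = 1.9e-10) and, without shared barcodes, by 2.90 (adjusted p = 5.7e-08). The other 4 differences, NA1a minus Ach2, are given as sizes without a test: -6.44 for Vip (SE 0.63), -6.66 for Cartpt (SE 0.60), -4.18 for Sst (SE 0.47) and -5.21 for Calca (SE 0.40). Without shared barcodes they were -6.08, -5.61, -3.45 and -3.60. The sizes depend on the setting, since with a pseudocount of 1 they were -4.84, -4.20, -1.82 and -2.20, and the Sst difference was -2.84 without mouse 1 and -5.60 without mouse 4. NA1a of the 5 mice had 0 Calca UMIs in 1510093, which allows up to 0.0199 per 10000 over the group. The summed level of 2.74 in Ach2 of mice 1 and 4 was 138-fold this limit (102.5-fold without shared barcodes). This ratio describes pooled UMIs and is not a bound over mice. Mouse 1 carries it: the ratio was 194-fold in mouse 1 and 76.7-fold in mouse 4, and without shared barcodes 166-fold and 30.5-fold. Both Ach2 profiles were far above all NA1a profiles for the 4 genes, and their spread rests on 2 mice. The median gene was higher in NA1a by 0.11.

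**Figure D3:**
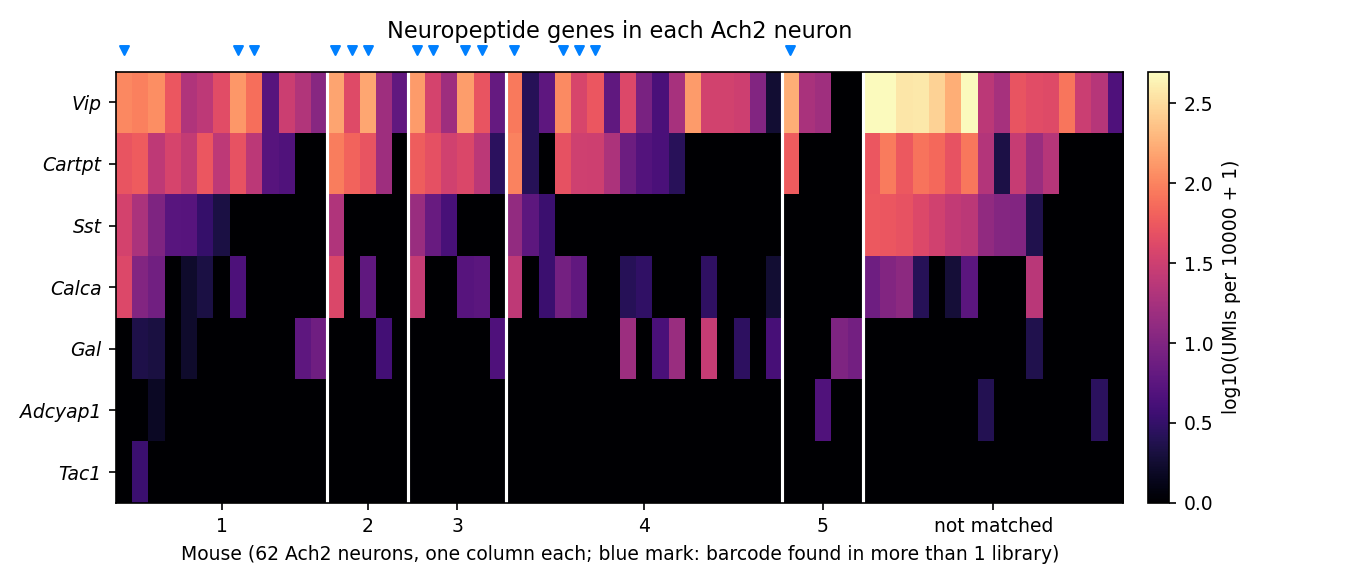
Each column is 1 of the 62 Ach2 neurons, grouped by mouse and sorted within a mouse by Sst, Cartpt and Vip, and each row 1 peptide; the colour is log10(UMIs per 10000 + 1), and blue marks show neurons whose barcode occurs in more than 1 library. The Vip row is filled in 60 neurons, Cartpt in 44, and Sst in 25 that nearly all have Cartpt too.

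Within Ach2 the peptides were found together in several combinations. Of 62 neurons, 13 had Vip without Cartpt, Sst or Calca, 12 had Vip and Cartpt, 8 Vip, Cartpt and Calca, 9 Vip, Cartpt and Sst, and 15 had all 4. Another 2 had Vip and Calca, 1 had Vip, Sst and Calca, and 2 had none of the 4. Every neuron with Cartpt, Sst or Calca also had Vip. This was nearly fixed in advance, since all but 2 neurons had Vip and it is one of the genes that name Ach2. The combinations were not repeated on thinned neurons. Without shared barcodes (47 neurons) the same combinations held 13, 8, 2, 8, 11, 2, 1 and 2 neurons. An Ach2 neuron had 2.84 of the 9 members on average (2.39 after thinning), against 1.69 in Ach1, 1.16 in NA1a and 0.720 in NA1b.

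Sst and Cartpt were found together in 24 Ach2 neurons, where the product of their shares gives 17.7. Cartpt and Calca shared 23 neurons against 18.4, and Sst and Calca 16 against 10.5. Vip and Cartpt shared 44 against 42.6, which could hardly differ since nearly all neurons had Vip. Pooled over mice, these pairs other than Vip and Cartpt stayed above the product without shared barcodes (19 against 12.3, 13 against 9.87 and 12 against 6.81). In mouse 1, 53.8% of Ach2 neurons had Cartpt and Sst where the product gives 45.6%, and in mouse 4 11.8% where it gives 10.4%. Cartpt and Calca were together in 46.2% against 39.05% in mouse 1 and 29.4% against 27.7% in mouse 4. Without shared barcodes this pair was below the product in mouse 4 (15.4% against 17.75%). Sst and Calca had 38.5% against 24.85% in mouse 1 and 11.8% against 8.30% in mouse 4. In mouse 3, with 6 Ach2 neurons, Sst and Calca were below the product (16.7% against 25%). Only mice 1 and 4 had enough Ach2 neurons, so the pairs were not tested. Pooled over mice, Gal went the other way: it was in 4 of the 25 neurons with Sst (16.0%) and 12 of the 37 without (32.4%). By mouse the direction was mixed. In mouse 1, 23.1% of Ach2 neurons had Sst and Gal where the product gives 20.7%, and in mouse 4 0% where it gives 6.23%.

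Neurons with Sst were deeper, with a median of 6298 UMIs against 3030 for the 37 without Sst. Pooled, the median Vip level was 86.5 UMIs per 10000 with Sst and 29.2 without, and the median Cartpt level 48.9 and 1.84. The pooled Vip medians mix mice and batches. Of the 25 neurons with Sst, 11 came from the unmatched mice, where Vip was highest, and of the 37 without Sst, 5 did. In the matched mice the Vip medians were 48.5 and 25.1. In mouse 1 they were 53.6 and 25.1, and in mouse 4, with 3 neurons with Sst, the order turned to 4.90 and 31.8. Cartpt was found in 24 of 25 and 20 of 37, Calca in 16 and 10, Slc18a3 in 19 and 14, and Chat in 8 and 12. Depth moved with the presence of Sst, and its part in these shares was not tested.

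Over the 25 profiles the genes most like Vip were Barx2 (r = 0.879), a homeobox gene, Pdyn (r = 0.857), the dynorphin precursor, and Chat (r = 0.841). Those most like Sst were Calca (r = 0.934), Pdyn (0.933) and Barx2 (0.917), those most like Cartpt were Slc18a3 (0.936), Pdlim3 (0.926) and Pdyn (0.920), and those most like Calca were Pdyn (0.979), Chat (0.974) and Tcerg1l (0.969). Of the 25 profiles, 2 are of Ach2, and they alone reach a level of 0.5 for Sst and Calca. These 2 profiles largely set the r values, so any gene mostly confined to Ach2 ranks high. Nothing more is drawn from them. The Chat level was 1.00 in Ach2 and 0 in the noradrenergic subtypes with enough neurons, and that of Slc18a3 was 1.70 in Ach2 and at most 0.0468 in those subtypes.

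Outside Ach2, Vip was found at low levels in every subtype. Of 1241 neurons, 187 had Vip, 136 of them with 1 UMI, and 6 had 5 or more, against 47 of 62 in Ach2. In NA1a the level in mice 1 to 5 was 2.12, 0.0325, 0.111, 0.215 and 0.135 UMIs per 10000, and the share of neurons with Vip was 42.5%, 3.70%, 8.00%, 11.9% and 8.70%. Mouse 1 stood apart: 17 of its 40 NA1a neurons had Vip, 13 of them with 1 UMI, and after thinning 3 of 39. Its level came mostly from 1 neuron with 11 Vip UMIs among 1755, and the other 39 averaged 0.571. In NA1b the level was 0.434, 0.505, 0.321, 0.279 and 0.150 (0.338 ± 0.138, SD, n = 5), with mice closer together. In NA1c it was 1.65, 0.188, 0.731, 0.639 and 0.327, again highest in mouse 1. In NA2 it was 0.564, 0.370, 2.54, 0.410 and 0, and of the UMIs of mouse 3 there 1 neuron had 19, the other 48 neurons averaging 0.396. The subtypes overlapped across mice, and Vip was called neither between NA1a and NA1c (-0.97, adjusted p = 0.248) nor between NA1a and NA2 (-0.64, adjusted p = 0.259).

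In NA3 the Vip level of mice 2, 4 and 5 was 0.613, 0.983 and 0.249, with Vip in 52.2%, 35.7% and 5.13% of neurons. In mice 1 and 3, with fewer NA3 neurons, 5 of 9 and 0 of 7 had it. NA3 was above NA1a in each of the 3 mice, but the limma difference NA1a minus NA3 of -1.46 (SE 0.54, adjusted p = 0.0525) was not called. Without mouse 1 it was called (-1.86, adjusted p = 0.0272), and the adjusted p ran from 0.00931 to 0.422 over the alternatives. Pooled, 25.3% of NA3 neurons had Vip, 11.1% after thinning, against 12.7% and 4.55% in NA1a. The glial and fibroblast markers given above for NA3 stand beside this value too, and their part was not tested.

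Ach1 neurons carried Vip at low copy. It was found in 40 of 64 (62.5%, interval 49.5% to 74.3%), 47.4% after thinning, although Ach1 was the shallowest subtype, and the share in the other subtypes that are not Ach2 was 9.71% to 25.3%. Nearly all rests on mouse 4, where 37 of 55 had Vip (67.3%), 19 of them with 1 UMI, at most 4 UMIs in a neuron, and a level of 5.07. Cartpt was found in 8 of the 55 (14.5%), at a level of 0.583. The summed satellite glia markers of Ach1 were 123 UMIs per 10000 and those of fibroblasts 49.8. With 1 mouse, the level of Ach1 has no replicate check.

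Free RNA in the droplets can give a neuron UMIs of a gene that it does not transcribe, and its part in the low Vip counts outside Ach2 was not tested.

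Gal and Vip were the one pair found in at least 5% of neurons in subtypes with 3 or more mice, which gave 5 tests of co-detection. In NA1a the share of neurons with both exceeded the product of the 2 shares by 0.290 ± 0.316 percentage points (SD, n = 5, exact sign-flip permutation p = 0.25, adjusted 0.417). The difference was 0.0493 ± 1.92 in NA1b (exact p = 0.875, adjusted 0.875), -1.05 ± 1.45 in NA1c (exact p = 0.25, adjusted 0.417) and -1.01 ± 2.02 in NA2 (exact p = 0.375, adjusted 0.469), each over 5 mice and with both signs among them. In NA3 both peptides were found in 52.2%, 28.6% and 5.13% of the neurons of mice 2, 4 and 5, where the products give 47.6%, 23.0% and 3.81%. This excess of 3.82 ± 2.24 points was positive in 3 of 3 mice, and 3 mice cannot give an exact p below the 0.25 found (adjusted 0.417). No subtype could pass the test, since 5 mice cannot give an exact p below 0.0625, and in NA1a every neuron of mice 1 and 3 had Gal, which fixes their difference at 0. The values are therefore a description. Pooled over all mice, 33 of 64 Ach1 neurons had both against a product of 35, and 14 of 62 Ach2 neurons against 15.5.

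**Figure D4:**
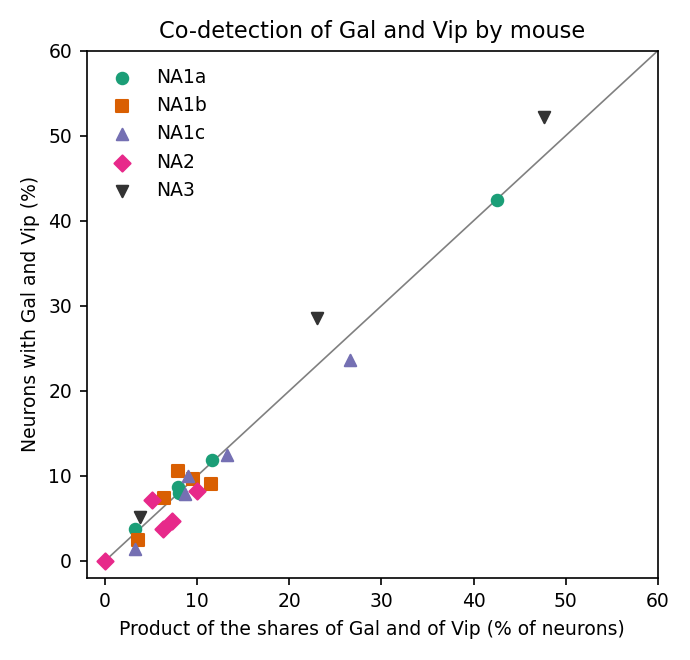
For each mouse and subtype with at least 10 neurons, the percent of neurons with both Gal and Vip (vertical axis) is plotted against the product of the 2 shares in percent (horizontal axis); the line marks equal values. Points of the other subtypes lie on both sides of or on the line, and the 3 NA3 points lie above it, the farthest at 28.6% against 23.0%.

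Cartpt and Sst were rare outside Ach2. Cartpt was found in 2.70% to 4.75% of the neurons of NA1a, NA1b, NA1c, NA2, NA3 and Glut and in 12.5% of Ach1. The NA2 levels were 0.724, 0, 0.131, 0 and 0.270 in mice 1 to 5, and the difference NA1a minus NA2 was -0.86 (adjusted p = 0.102). It was called with centred profiles (-1.16, adjusted p = 0.0260) and without mouse 4 (-1.36, adjusted p = 0.0118), and was -0.44 (adjusted p = 0.552) without shared barcodes. A single unmatched NA2 neuron had 68 Vip, 35 Cartpt and 7 Slc18a3 UMIs among 18482, and it is not among these levels. Sst was found in 8 of 316 NA1a neurons (2.53%), each with 1 UMI, in 2 of NA3, 2 of Ach1 and 1 of NA1c, and in 0 of NA1b, NA2 and Glut.

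Calca was found outside Ach2 in 7 of 37 Glut neurons, in 2 of NA3, 1 of NA1c and 1 of Ach1, and in 0 of NA1a, NA1b and NA2. Of the 7 Glut neurons, 6 came from mouse 5, which had 7 Glut neurons in all, and the same 6 were the only Glut neurons with Tac1, where the product of the pooled shares gives 1.14. These neurons were singled out after their values were seen and are described without a test. Their Calca counts were 2, 14, 10, 9, 4 and 3 UMIs and their Tac1 counts 1, 10, 1, 3, 2 and 1. Their median depth was 7871 UMIs, against 2845 in the other 31 Glut neurons.

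The 6 neurons also carried genes of sensory neurons. Scn10a and Scn11a, sodium channels of pain-sensing neurons, were found in 6 of 6 and in 0 of the other 31 Glut neurons, as were Mrgprd, a receptor gene of skin nociceptors, and P2rx3, an ATP-gated channel of sensory endings. Prdm12, a regulator of nociceptor development, was found in 5 of 6 and in 0 of 31. The other markers of the list did not separate them: Pirt was found in 5 of 6 and 25 of 31, Avil in 6 of 6 and 17 of 31, and Trpv1 in 0 of 6 and 1 of 31, and Pirt and Avil were in 48.8% and 56.2% of the neurons of other subtypes. Each of the 6 had 6 to 7 of the 8 sensory markers detected, and 16.6 to 90.4 marker UMIs per 10000, whereas the other Glut neurons had 0 to 3 markers and 0 to 22.5. Slc17a6 was in 5 of the 6 and in 0 of the 31, so all Slc17a6 of the Glut subtype was here. Th, the first enzyme of noradrenaline synthesis, was in 0 of the 6 and 28 of 31, and Dbh in 1 and 30. Gal was in 1 of the 6 and 16 of 31. Among the 1266 neurons of the other subtypes Scn10a was found in 7, P2rx3 in 1 and Mrgprd and Prdm12 in 0. Within the Glut subtype Slc17a6 was thus found in neurons of 1 mouse, and none of the 6 had a shared barcode.

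**Figure D5:**
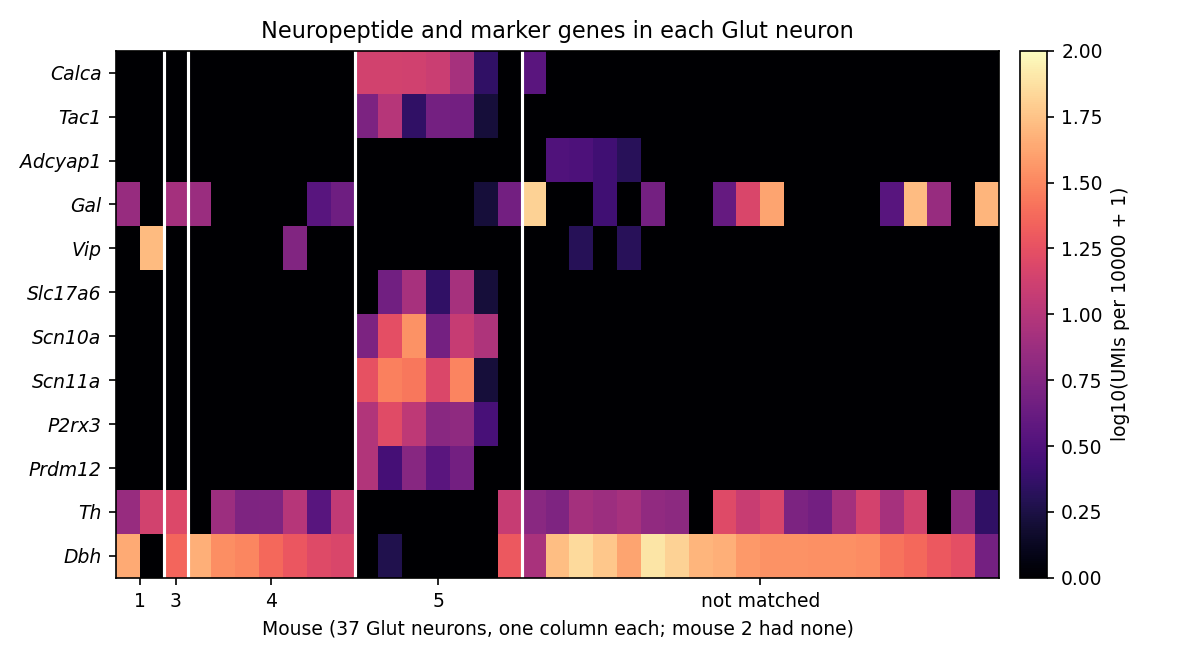
Each column is 1 of the 37 Glut neurons, grouped by mouse, and each row 1 gene; the colour is log10(UMIs per 10000 + 1). In mouse 5, 6 neurons are filled for Calca, Tac1, Scn10a, Scn11a and P2rx3 and empty for Th, whereas 28 of the other 31 have Th.

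The last 4 members were near the limit of detection. Tac1 was found, beside the 6 Glut neurons, in 8 NA1a neurons of mice 1, 4 and 5 (2, 2 and 4 neurons, at most 6 UMIs), in 1 Ach2 neuron with 4 UMIs, in 1 NA1c neuron with 3, and in 1 neuron each of NA1b and NA3. Adcyap1 was found in 4 NA1b, 4 Ach2, 4 Glut, 2 NA1a, 2 NA2 and 1 NA1c neurons and in 0 of NA3 and Ach1, with 18 UMIs in all. All 4 Glut neurons with Adcyap1 came from 1 unmatched mouse, which had 11 Glut neurons, whereas the 17 Glut neurons of matched mice had none. Penk was found in 2 NA3 neurons and 1 Ach1 neuron, with 1 UMI each. With no filter on low values Tac1 was called between NA1a and NA2 (0.71, adjusted p = 0.0404) and Penk between NA1a and NA3 (-0.66, adjusted p = 0.0260), from these few UMIs. For Nppb, a peptide of heart muscle and of itch-sensing neurons, no UMI was counted in any subtype.

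A list of 26 genes held receptors and partner proteins for these and related peptides. Of the 26, 20 were among the genes measured, and most of these were too low to test, with 4 past the filter. Between NA1a and NA1b none of the 4 was called. Against NA1c, 1 was higher in NA1a and 1 in NA1b. In NA1a, 2 were higher and 1 lower than in NA2, 1 higher and 1 lower than in NA3, and 1 higher than in Ach2. Of all genes tested, 3.48%, 4.37%, 1.42%, 43.9%, 17.8% and 5.02% were called in these contrasts, in the same order. With 4 genes tested, these counts are not a result about receptors. Ramp1, the partner protein of the receptor for calcitonin gene-related peptide, was higher in NA1a than in NA1c by 1.36 on the log2 scale (adjusted p = 0.00113) and in NA1b than in NA1c by 1.26 (adjusted p = 0.00229). Its level was 1.51 ± 0.286 UMIs per 10000 in NA1a (SD, n = 5) and 0.557 in NA1c. Adcyap1r1, the receptor for pituitary adenylate cyclase-activating polypeptide, was higher in NA1a than in NA2 by 1.82 (adjusted p = 9.0e-05) and than in Ach2 by 2.09 (adjusted p = 0.00706). Ramp2 was lower in NA1a than in NA3 (log2 difference -2.44, adjusted p = 5.3e-05), the contrast in which glial markers moved too. Of 50 other peptide genes, 39 were among the genes measured. Of these 7 were tested, and between the noradrenergic subtypes Npy was called in all 5 contrasts, Edn3 in 3 and Scg2 in 1. From NA1a to Ach2, 3 of them were higher in NA1a and 2 lower, among these Pdyn (-2.75, near 0 in the noradrenergic subtypes), and Scg2, a secretory granule protein, was higher by 2.61 (adjusted p = 2.1e-07). Endothelin 3 (Edn3) was lower in NA1a than in NA1b (log2 difference -2.29, adjusted p = 0.000608), the opposite direction to Gal and Npy.

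Few neurons carried a reporter of their target. GFP, from the heart, was found in 6 neurons, of which 4 had Gal, 1 Vip, 1 Cartpt and 1 Adcyap1. The tdTomato reporter, from the paw, was found in 20, of which 15 had Gal, 3 Vip, 2 Cartpt and 1 Penk. These numbers were too small to compare the peptides of neurons to the heart and to the paw.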

How the data were processed

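Neurons from stellate ganglia of 8 mice were profiled by droplet single-cell RNA sequencing; the authors deposited natural log values, ln(1 + UMIs per 10000), with a table of subtype and mouse per neuron. Per the submitters' notes, reads were processed with Cell Ranger 2.1.1 and mm10, Seurat and Scanpy, and their stated limits per cell were 500 to 6000 genes, 20000 UMIs at most and a mitochondrial share below 15%. All 1303 neurons lie within the gene and UMI limits. Values were converted back to UMIs, and 100% of nonzero values came within 0.01 of a whole number. Total depth was 916296 to 1196621 UMIs per matched mouse. Other cells of the ganglion were not analysed here.

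Levels were averaged per mouse and subtype (at least 10 neurons), filtered (mean of at least 0.5 in as many profiles as the smallest subtype had, here 2) and tested with limma 3.58.1 in R 4.3.3 on log2(level + 0.1), with a mouse block and an adjusted p threshold of 0.05. A fold change on this scale understates changes of low genes. Profiles were paired by mouse name, which is also the library, so animal and technical parts of the block cannot be told apart. Profiles of 1 mouse had a mean residual correlation of 0.0616, against -0.0154 for profiles of another mouse and another subtype. Co-detection and pairs of subtypes were compared by exact sign-flip tests over mice (Python 3.11.15, NumPy 2.4.6, SciPy 1.17.1). Alternatives were a pseudocount of 1, no filter, at least 5 neurons, thinning to 2000 UMIs, centred profiles, no block, only the 2 subtypes compared, at least 2 UMIs, leaving out each mouse and, added after seeing the data, leaving out shared barcodes. The scripts were tested on simulated data. The members and gene lists were chosen with earlier results of these data known. Genes named are the members, the 3 genes most alike to each, the highest genes of the peptide and receptor lists, and markers; the 6 Glut neurons, their sensory genes and single neurons with many UMIs were picked after their values were seen.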

Additional observations from a re-analysis of the deposited data

Results flagged for a closer look

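In 24 groups of 5 mice, 4 had a mouse far from the others. The rule gives about 1 group in 20 for normally spread values in independent groups. The flagged levels rest on few UMIs or single neurons, and the Vip level and share in NA1a come from the same neurons. Nothing is therefore drawn from the number of flags. The Vip level in NA1a was 2.12 UMIs per 10000 in mouse 1 and 0.0325 to 0.215 in the other 4 mice, and the share of NA1a neurons with Vip was 42.5% in mouse 1 and 3.70% to 11.9% in the others. Of this level, 1 neuron with 11 Vip UMIs gave most, and the other 39 averaged 0.571. The Vip level in NA2 was 2.54 in mouse 3 and 0 to 0.564 in the others, with 19 of its 24 UMIs in 1 neuron. The Cartpt level in NA1b was 0.467 in mouse 1 and 0 to 0.0818 in the others, and it rests on 2 UMIs in 38 neurons, 1 of them in a neuron of only 785 UMIs.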

How the results depend on the processing

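Over 36 results and 381 values under alternatives, the number of members called between NA1a and NA1b and between NA1b and NA1c did not move. Between NA1a and NA1c 0 members were called with no filter on low values and with at least 5 neurons per profile. Between NA1a and NA2 the number was 0 with at least 5 neurons and 0 to 2 when a mouse was left out, 0 without mouse 3 and 2 without mouse 4, and the 1 member called was Tac1 with no filter and Cartpt with centred profiles. Between NA1a and NA3 it was 2 with no filter (Penk the second), and 2 when thinned, centred or fitted on the 2 subtypes alone and 1 to 2 when a mouse was left out (2 without mouse 1), with Vip the second. Between NA1a and Ach2 it was 3 of 3 tested with at least 5 neurons, because the filter then asked for 5 profiles, the number of Ach2, and Sst and Calca reached it in 4. Signs of the Gal and Vip co-detection turned to -0.327 percentage points in NA1a and 0.328 in NA1c with at least 2 UMIs, and in NA1b to -0.102 when thinned, -0.213 without mouse 2 and -0.579 without mouse 1 (-0.579 to 0.659 when a mouse was left out); the causes were not tested. With no replicate block the members called were 1, 1, 1, 1, 1 and 5, so dropping the pairing by mouse changed no call of Gal. The calls of the other 4 members in Ach2 were fixed by the filter or by the naming of Ach2. They say nothing of the pairing. Over all genes tested, the calls ran over the alternatives from 59 to 595 between NA1a and NA1b, 53 to 712 for NA1c, 33 to 173 between NA1b and NA1c, 1571 to 3250 between NA1a and NA2, 789 to 1640 for NA3 and 136 to 990 for Ach2. Depth limits what is said of Penk, Adcyap1, Tac1 and Nppb, and Ach1, Ach2 and Glut rest on 1, 2 and 0 mice with 10 neurons.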
